A study of Mus musculus with 4 samples.

Results

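The fibroblast growth factor (FGF) genes described here are 6 ligands, Fgf1, Fgf2, Fgf7, Fgf9, Fgf10 and Fgf18, and the 4 receptors Fgfr1, Fgfr2, Fgfr3 and Fgfr4. They were chosen by gene symbol, and all 10 were found in the deposited table of TPM, a transcript abundance that allows for gene length, which lists 19991 of the 57186 genes counted. RNA was sequenced from whole mouse uterus on gestational day 4, in 2 Prss29Cre/Cre;Pgrf/f (Pgr gecKO) samples and 2 wild-type samples. In Pgr gecKO mice both copies of Prss29, a protease gene of the uterine glands, carry Cre recombinase, and Cre is meant to delete the floxed progesterone receptor gene Pgr in gland epithelium only, so stroma, muscle and luminal epithelium keep it. The comparison group is labelled wild type, not floxed without Cre, so the loss of Pgr, the presence of Cre and the altered Prss29 locus cannot be told apart. The labels used here give neither strain nor age, and do not say whether a replicate is a separate animal, so p-values refer to the spread among these 4 libraries, and part of that spread may be technical.

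FGFs are secreted growth factors that bind receptor tyrosine kinases on the cell surface with heparan sulphate as a cofactor, and the receptors pass the signal through the adaptor FRS2 to the RAS and MAP kinase relay. In the mouse uterus, stromal FGFs stimulate proliferation of the overlying epithelium. Progesterone, through the receptor in stroma and epithelium and through Indian hedgehog, raises the stromal transcription factor HAND2, which restrains these ligands before implantation.

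The libraries held 31901278 and 29932153 counts in Pgr gecKO replicates 1 and 2, and 35149834 and 33843256 counts in wild-type replicates 1 and 2. Prss29 had 0 and 0 counts in the Pgr gecKO libraries, against 1524 and 190 counts in the wild-type libraries. Pgr stood at 130.1 and 146.2 CPM (read counts scaled to library size with TMM factors) in the Pgr gecKO libraries, against 140.5 and 138.6 CPM in the wild-type libraries. Counts of Pgr from whole tissue do not check a deletion in glands alone. Markers of epithelium, stroma, smooth muscle and endothelium were present in all 4 libraries, while Adipoq, the adipocyte hormone gene, had 0 CPM in Pgr gecKO replicate 1 and wild-type replicate 1 and 5.17 and 0.912 CPM in Pgr gecKO replicate 2 and wild-type replicate 2. Expression of Gbp2b, named after its values were seen, was higher in Pgr gecKO uterus, and it was the only gene of 20950 tested to pass at an adjusted p of 0.05 (edgeR quasi-likelihood test, Benjamini-Hochberg over all genes).

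The promoters of 2 ligands are shown because Fgf9 had the largest difference between the groups and Fgf10 carries a HAND2-type motif. Each is the 250 bases before the RefSeq start of the gene on the plus strand of GRCm38.p6, whereas the counts were made on GRCm39. The Fgf9 window is chr14:58072436-58072685 and the Fgf10 window is chr13:118714449-118714698. Capitals mark each CANNTG, the general E-box to which basic helix-loop-helix factors such as HAND2 bind.
Fgf9: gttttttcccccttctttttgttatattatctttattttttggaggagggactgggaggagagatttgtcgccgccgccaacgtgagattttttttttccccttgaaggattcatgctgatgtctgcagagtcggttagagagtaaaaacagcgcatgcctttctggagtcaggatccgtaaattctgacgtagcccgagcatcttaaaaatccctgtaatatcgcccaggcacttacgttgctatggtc
Fgf10: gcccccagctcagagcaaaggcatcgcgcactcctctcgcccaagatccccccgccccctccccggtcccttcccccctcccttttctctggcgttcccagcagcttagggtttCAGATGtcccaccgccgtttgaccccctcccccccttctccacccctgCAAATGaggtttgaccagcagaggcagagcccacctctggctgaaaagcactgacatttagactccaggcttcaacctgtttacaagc

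Promoters were matched for 8 of the 10 genes, giving 9 windows because Fgfr3 had 2. CATCTG, a form of E-box bound by HAND2 and contained in CANNTG, was found on either strand in the Fgf10 window (1 match) and in none of the other 8. Of all 32851 promoter windows of this length, 14.4% held CATCTG and 66.2% held CANNTG. Fgf9, Fgf2 and Fgf18 had no CANNTG in their windows, while Fgf7, Fgfr2 and 1 of the Fgfr3 windows had 1 and Fgfr4 had 2. TGTNCT, a core motif of the progesterone and related steroid receptors, was found on either strand in 1 of the 9 windows, an Fgfr3 one, and in 44.7% of all windows. A match is a description of letters and not a binding site.

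On the per-length TPM scale Fgfr2, the main epithelial receptor of the family, had the highest level of the 10 genes, between 66.7 and 73.7 TPM over the 4 libraries. Fgf1 (8.72 to 50.6 TPM) and Fgfr1 (14.4 to 23.1 TPM) came next and overlapped. Every library had more Fgfr1 than Fgf18, whose range of 6.21 to 11.3 TPM overlapped that of Fgf2 (6.39 to 8.62 TPM). Fgf7, Fgfr3 and Fgf10 had median levels of 3.79, 4.44 and 3.97 TPM over the 4 libraries, with ranges that overlapped one another. Fgf9 and Fgfr4 were lowest, with medians of 1.19 and 1.13 TPM, and each pair of neighbours from Fgf18 downward overlapped.

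**Figure D1:**
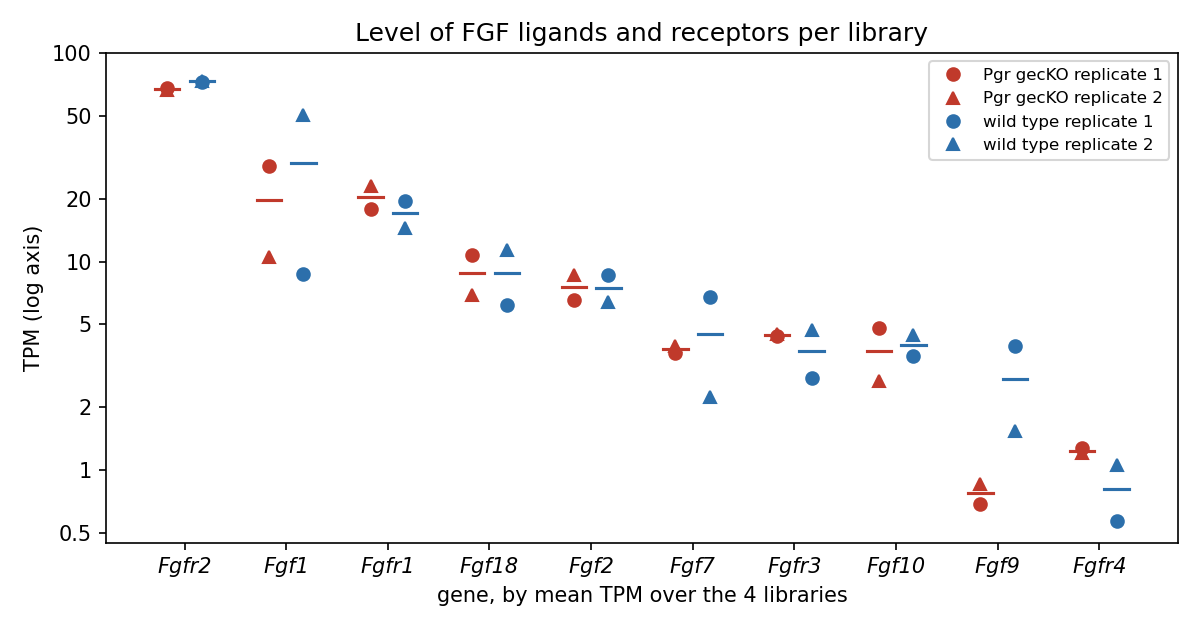
TPM of each gene on a log axis, with the genes ordered by their mean over the 4 libraries. Points are libraries, with Pgr gecKO left of wild type, and bars are group means (n = 2 each). Fgfr2 stands alone at 66.7 to 73.7 TPM, and the widest spread between replicates is that of Fgf1 in wild type, at 8.72 and 50.6 TPM.

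None of the 10 genes passed the test between Pgr gecKO and wild-type uterus at an adjusted p of 0.05, where 1 of 20950 genes did (0.00477%). All 10 had an adjusted p of 1 in edgeR. DESeq2 and limma-voom also called 0 of the 10, and over all genes they called 85 (0.406%) and 0 (0%). At an unadjusted p of 0.05 in edgeR, 1 of the 10 was lower, Fgf9, and 0 were higher, where 1.79% of all genes tested were lower and 1.22% higher (3.01% in either direction). In CPM, Fgf9 was lower in both Pgr gecKO libraries than in both wild-type libraries, as were 13.1% of all genes tested. Fgfr4 was higher in both, as were 12.2% of all genes. Together 2 of the 10 genes had groups that did not overlap, against 25.3% of all genes. The median log2 fold change was 0.000092 over the 10 genes and 0.0063 over all genes tested.

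**Figure D2:**
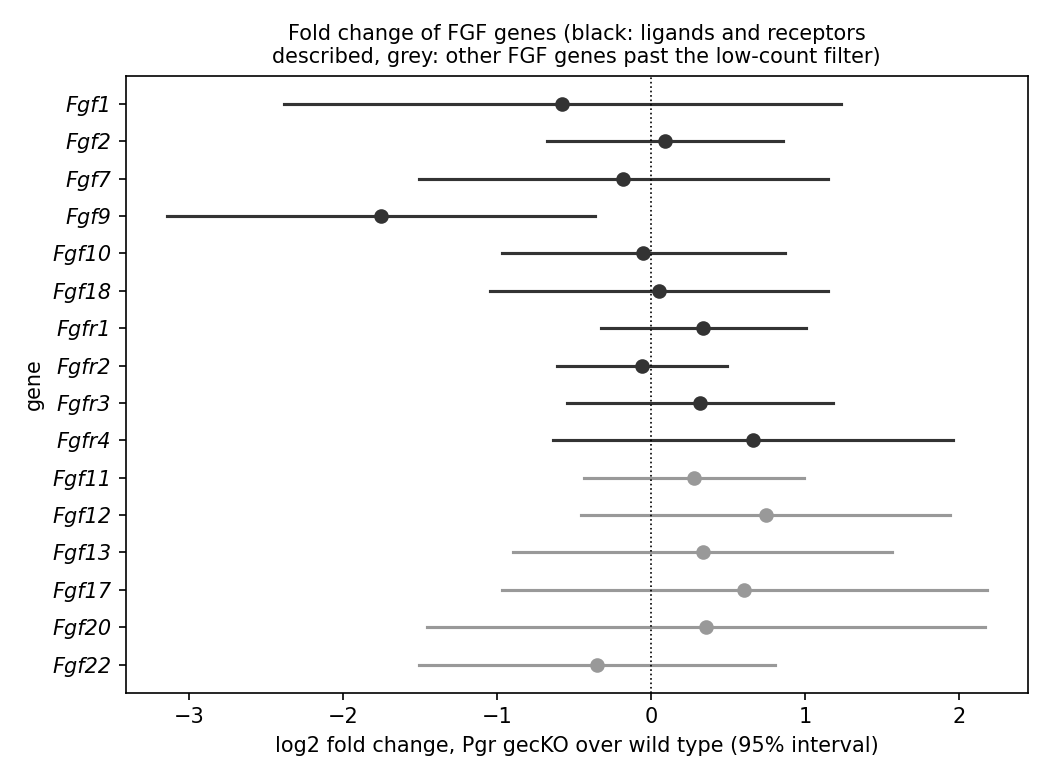
Log2 fold change of each FGF gene, Pgr gecKO over wild type, with its 95% interval from the edgeR fit (n = 2 per group). Black points are the 6 ligands and 4 receptors and grey points are the 6 other FGF genes that passed the low-count filter. The interval of Fgf9, from −3.14 to −0.36, is the only one of the 16 that does not include 0.

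Among the ligands Fgf9 showed the largest difference. Fgf9, a secreted ligand that binds mainly the mesenchymal receptor forms and is known for mesenchymal growth in lung and testis, had 32 and 39 counts in the Pgr gecKO libraries, against 199 and 78 counts in the wild-type libraries. That is 0.967 and 1.39 CPM in Pgr gecKO uterus, against 5.73 and 2.22 CPM in wild-type uterus. The groups did not overlap, but the wild-type replicates differed from each other by 2.58 times.

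The mean level of Fgf9 was 1.18 ± 0.299 CPM in Pgr gecKO and 3.98 ± 2.48 CPM in wild type (SD, n = 2 each). The log2 fold change of −1.75 (SE 0.58) corresponds to 0.297 times the wild-type level with a 95% interval of 0.113 to 0.777. Its unadjusted p was 0.0207 in edgeR, and its adjusted p was 1 in edgeR, 0.584 in DESeq2 and 1 in limma-voom. Without wild-type replicate 1 the log2 fold change was −0.90 (unadjusted p = 0.25 in the edgeR fit), and without wild-type replicate 2 it was −2.28 (adjusted p = 0.417 in edgeR). In these 2 fits wild type was a lone library, assumed to vary like the Pgr gecKO pair. The difference was smaller without wild-type replicate 1 than with all 4 libraries.

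The summed level of 9 gland epithelium markers, a list that holds Prss29 itself, was 101.5 and 106.9 CPM in the Pgr gecKO libraries, against 231.9 and 183.9 CPM in the wild-type libraries. Within that list, 7 of 9 genes were lower in both Pgr gecKO libraries, as were 13.1% of all genes tested. No list member other than Prss29 was at 0, but Prss28 had only 3 and 4 counts in Pgr gecKO, against 771 and 50 in wild type. The groups overlapped for Sox9 and Cxcl15, with log2 fold changes of −0.20 and 0.67. Foxa2, among the 7, was at 13.51 and 5.49 CPM in Pgr gecKO and 13.53 and 15.7 CPM in wild type. The list members thus did not move alike. DESeq2 called 6 of the 9, while edgeR called 0, with a smallest adjusted p of 0.237. The summed pan-epithelial markers were at 1981 and 2185 CPM in Pgr gecKO and 1817 and 2341 CPM in wild type. When the fit was scaled to the summed pan-epithelial counts, the log2 fold change of Fgf9 was −1.86 (adjusted p = 0.156 in edgeR), and scaled to the summed stromal counts it was −1.495 (adjusted p = 1). Over all genes, both scalings also called more genes than the main fit did. The summed leukocyte markers were at 110.1 and 116.4 CPM in Pgr gecKO and 135.0 and 163.3 CPM in wild type. Of the 6 tested, 3 were lower in both Pgr gecKO libraries, as were 13.1% of all genes tested. These were Cd68, Adgre1 and Csf1r, while the groups overlapped for Ptprc, Cd3e and Ncr1. The part of gland and leukocyte markers in the Fgf9 difference was not tested. In whole tissue, fewer cells of a type and less RNA per cell cannot be told apart.

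Fgf1, the ligand that binds every FGF receptor, had the highest TPM of the 6 ligands in every library and the widest spread. In CPM, Fgf2 was above it in Pgr gecKO replicate 2 (20.4 CPM) and wild-type replicate 1 (18.2 CPM). Fgf1 stood at 47.7 and 20.1 CPM in the Pgr gecKO libraries, against 14.9 and 86.2 CPM in the wild-type libraries. Pgr gecKO replicate 1 and wild-type replicate 2 were high and the other two libraries low, so the groups overlapped fully. Replicates differed 2.37-fold within Pgr gecKO and 5.79-fold within wild type. The log2 fold change was −0.58 with an interval of −2.39 to 1.23. Its direction rested on a lone library, since it was −1.33 without wild-type replicate 1 and 1.19 without wild-type replicate 2. Of the TPM of the 6 ligands, Fgf1 made up 52.2% and 31.5% in the Pgr gecKO libraries, against 23.1% and 66.1% in the wild-type libraries.

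Fgf7 and Fgf10 are the stromal ligands that act on epithelium through the epithelial form of FGFR2. Fgf7 stood at 3.60 and 4.46 CPM in the Pgr gecKO libraries, against 6.85 and 2.28 CPM in the wild-type libraries. The Pgr gecKO values lay between the wild-type ones. Its log2 fold change was −0.18 with an interval of −1.51 to 1.15. It was 0.83 without wild-type replicate 1 and −0.77 without wild-type replicate 2, so the wild-type library left out set its sign.

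Fgf10, which is required for the outgrowth of branching organs such as the lung, stood at 6.71 and 4.28 CPM in the Pgr gecKO libraries, against 5.04 and 6.35 CPM in the wild-type libraries. The groups overlapped, and the log2 fold change was −0.051 with an interval of −0.97 to 0.87. The ratio of Fgf10 to Fgf7 in TPM was 1.32 and 0.678 in the Pgr gecKO libraries, against 0.519 and 1.97 in the wild-type libraries. Neither ligand of the pair was uniformly the higher one in either group.

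Fgf2, a heparin-binding mitogen of stromal and endothelial cells, stood at 13.4 and 20.4 CPM in the Pgr gecKO libraries, against 18.2 and 13.5 CPM in the wild-type libraries. The groups covered almost the same range, and the log2 fold change was 0.090 with an interval of −0.68 to 0.86. Exons of Nudt6 on the opposite strand share 640 bases with Fgf2 in GENCODE M21 on GRCm38. The strand setting of the counting is not given in the sources used here, so reads from the shared stretch could not be assigned to either gene with certainty. Fgfr2 shares 314 exon bases with Ctbp2 on the same strand, where no strand setting separates the genes, and Ctbp2 had 2238 to 2922 counts per library. On the opposite strand, overlaps of 123 and 164 bases exist for Fgf10 and Fgfr1, and 998 bases of Fgfr3 overlap G630022F23Rik, which had 7 to 29 counts per library.

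Fgf18, which acts on skeletal growth through the mesenchymal receptor forms, stood at 3.87 and 2.85 CPM in the Pgr gecKO libraries, against 2.30 and 4.19 CPM in the wild-type libraries. The groups overlapped, with a log2 fold change of 0.051 and an interval of −1.05 to 1.15. For Fgf2 the 95% interval in folds ran from 0.625 to 1.81, and for Fgf18 from 0.484 to 2.22, and the data do not exclude changes inside those bounds.

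Among the receptors, Fgfr2 spanned 0.18 log2 units over the 4 libraries, less than any of the other 9 genes, while Fgfr1, Fgfr3 and Fgfr4 spanned 0.84, 0.86 and 1.17. Fgfr2, whose epithelial splice form receives Fgf7 and Fgf10, stood at 211.8 and 240.7 CPM in the Pgr gecKO libraries, against 233.7 and 237.5 CPM in the wild-type libraries. The groups overlapped in CPM, with a log2 fold change of −0.058 and an interval of −0.61 to 0.49. In TPM, which carries no TMM scaling, Fgfr2 was at 67.8 and 66.7 in the Pgr gecKO libraries, against 72.4 and 73.7 in the wild-type libraries, and there the groups did not overlap. Counts per gene cannot separate the epithelial and mesenchymal splice forms of any receptor.

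Fgfr1, the main receptor of stroma and other mesenchyme, stood at 52.9 and 79.3 CPM in the Pgr gecKO libraries, against 60.2 and 44.2 CPM in the wild-type libraries. Pgr gecKO replicate 2 was the highest and wild-type replicate 2 the lowest, and the ranges overlapped. The log2 fold change of 0.34 (SE 0.28) came to 0.021 without Pgr gecKO replicate 2. The ratio of Fgfr2 to Fgfr1 in TPM was 3.81 and 2.89 in the Pgr gecKO libraries, against 3.70 and 5.12 in the wild-type libraries. Fgfr2 thus made up 74.3% and 69.9% of the TPM of the 4 receptors in Pgr gecKO, against 76.0% and 78.5% in wild type.

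Fgfr3, known as a brake on bone growth, stood at 9.52 and 11.2 CPM in the Pgr gecKO libraries, against 6.16 and 10.5 CPM in the wild-type libraries. Wild-type replicate 1 was the low library, and the log2 fold change of 0.31 (interval −0.55 to 1.18) became −0.0037 without it. The pseudogene Fgfr3-ps had 181 and 192 counts in the Pgr gecKO libraries, against 176 and 190 counts in the wild-type libraries. It shared 3.25% of its stretches of 30 bases and 0% of its stretches of 50 bases with Fgfr3 transcripts in GENCODE M21, shorter than the 150-base reads.

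Fgfr4, a receptor best known in liver for the response to bile acids, had the lowest mean TPM of the 10 genes over the 4 libraries, although Fgf9 was lower in both Pgr gecKO libraries. Fgfr4 had 45 and 42 counts in the Pgr gecKO libraries, against 22 and 41 counts in the wild-type libraries. That is 1.36 and 1.497 CPM in Pgr gecKO and 0.633 and 1.17 CPM in wild type. The groups did not overlap, but the counts of Pgr gecKO replicate 2 and wild-type replicate 2 differed by 1. The log2 fold change was 0.66 with an interval of −0.64 to 1.96, and it was 0.30 without wild-type replicate 1 and 1.17 without wild-type replicate 2.

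**Figure D3:**
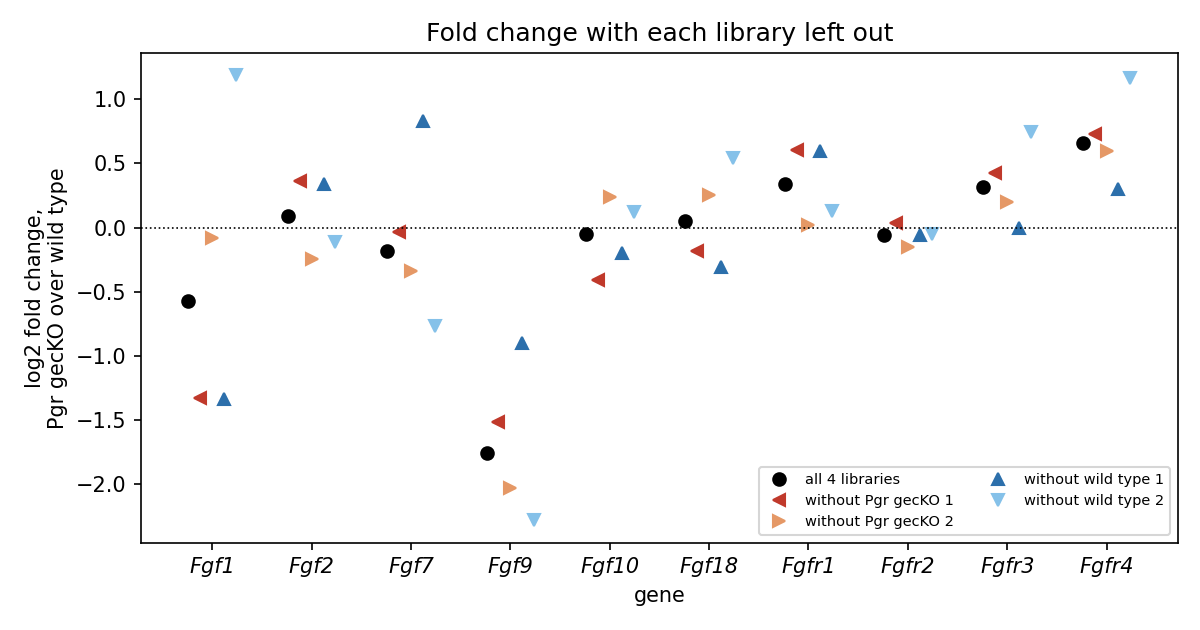
Log2 fold change of each gene, Pgr gecKO over wild type, with all 4 libraries (black) and with each library left out in turn. Fgf9, whose groups do not overlap and whose sign could thus hardly turn, runs from −2.28 to −0.90. Fgf1 runs from −1.33 to 1.19 and Fgf7 from −0.77 to 0.83.

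With 1 library left out in turn, the sign held for Fgf9, Fgfr1 and Fgfr4 and turned at least once for the other 7 genes. The groups of Fgf9 and Fgfr4 did not overlap, so leaving out 1 library could hardly turn their signs. A held sign therefore adds nothing for these genes. None of the 10 passed in any of these 4 fits, in each of which 1 group was a lone library assumed to vary like the other. Several of the genes split the libraries across the genotypes, and this split was not particular to FGF genes. Over all 20950 genes tested, the deviations of replicate 1 from its group mean correlated at −0.44 between the groups. The share of all genes with the split was not counted. Fgf1, Fgf10 and Fgf18 were each higher in Pgr gecKO replicate 1 and wild-type replicate 2 than in Pgr gecKO replicate 2 and wild-type replicate 1. Fgf2 was higher in Pgr gecKO replicate 2 and wild-type replicate 1 than in the other two libraries, as were Fgf7 and Fgfr1.

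Cell type markers also varied between replicates. The summed smooth muscle markers were at 7378 and 11157 CPM in the Pgr gecKO libraries, against 8658 and 3196 CPM in the wild-type libraries. The summed stromal markers were at 7303 and 8354 CPM in Pgr gecKO and 11670 and 6314 CPM in wild type, and the summed luminal markers at 1062 and 1130 CPM in Pgr gecKO and 623 and 1318 CPM in wild type. Smooth muscle and stromal sums were thus higher in Pgr gecKO replicate 2 and wild-type replicate 1, as were Fgf2, Fgf7 and Fgfr1. The summed blood markers, at 39.2 and 133.7 CPM in Pgr gecKO and 110.5 and 32.1 CPM in wild type, split the same way. So did the skeletal muscle and mesothelium sums. The luminal, pan-epithelial, gland, endothelium, leukocyte and adipocyte sums did not split the libraries this way. Per 1000 CPM of stromal markers, Fgf7 was at 0.493 and 0.533 CPM in the Pgr gecKO libraries, against 0.587 and 0.361 CPM in the wild-type libraries. Fgf7 ranked the libraries as the stromal sum did, so dividing by that sum would draw its values together. Fgf1 on the same scale was at 6.53 and 2.41 CPM in Pgr gecKO and 1.28 and 13.7 CPM in wild type. Fgf1 was high in the libraries where the stromal sum was low, so dividing by that sum had to widen its spread. Per 1000 CPM of pan-epithelial markers, Fgf1 was at 24.1 and 9.20 CPM in Pgr gecKO and 8.19 and 36.8 CPM in wild type. The part of tissue makeup in the spread of Fgf1 and the other FGF genes was not tested.

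**Figure D4:**
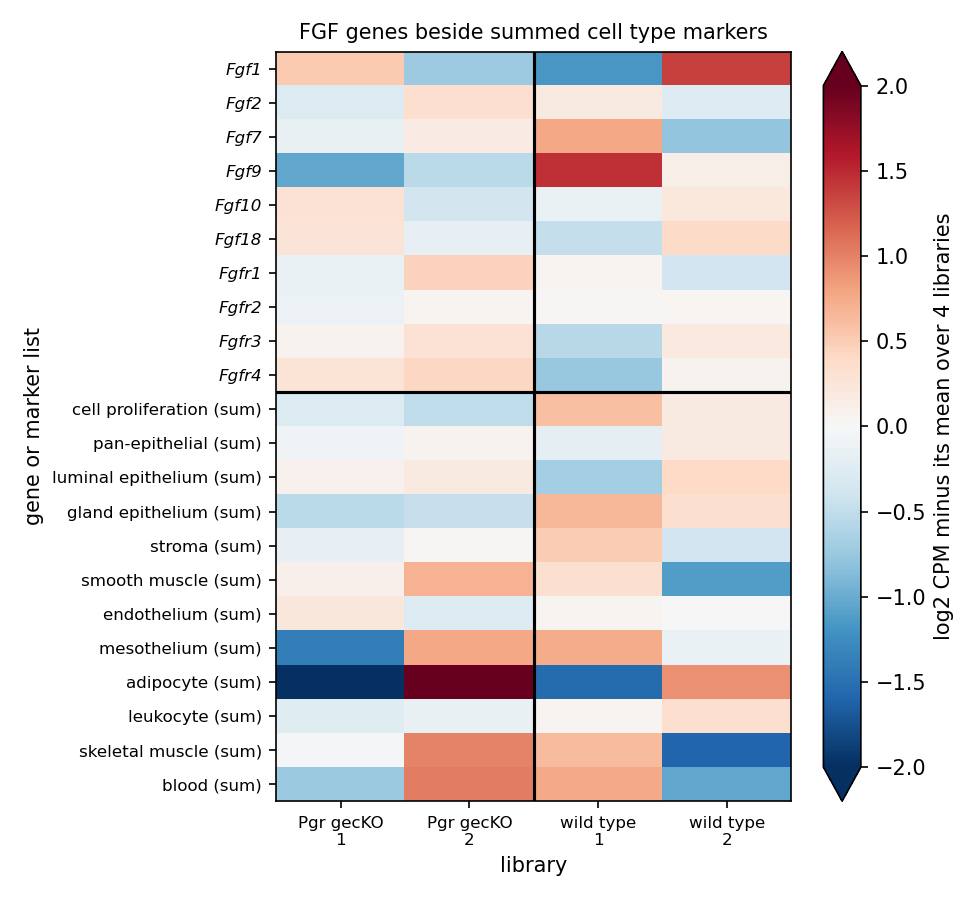
Log2 CPM of the 10 FGF genes, and log2 of the summed CPM of the proliferation list and of each cell type marker list, minus the mean over the 4 libraries. Red is above and blue below that mean, and values past 2 share the end colours. Fgf9 and the gland, leukocyte and proliferation sums are below the mean in both Pgr gecKO libraries, while Fgf1 is above it in Pgr gecKO replicate 1 and wild-type replicate 2.

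Of the 16 other FGF genes, 6 passed the low-count filter and none was called. The tested intracellular FGF homologous factors, which are not secreted, were Fgf11, Fgf12 and Fgf13. Fgf11 was at 10.6 and 9.45 CPM in the Pgr gecKO libraries, against 8.81 and 7.75 CPM in the wild-type libraries. Fgf12 was at 2.30 and 2.21 CPM in Pgr gecKO and 0.950 and 1.74 CPM in wild type, and Fgf13 at 0.998 and 1.35 CPM in Pgr gecKO and 0.892 and 0.969 CPM in wild type. These 3 were higher in both Pgr gecKO libraries, as were 12.2% of all genes tested, and their log2 fold changes were 0.28, 0.74 and 0.33, with 0 inside each interval.

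The secreted ligands Fgf17, Fgf20 and Fgf22 had log2 fold changes of 0.61, 0.36 and −0.35, with intervals that included 0 and groups that overlapped. Exons of Micu3 overlap Fgf20 and exons of Rnf126 overlap Fgf22 on the opposite strand, so counts of both ligands are uncertain. The 10 others, among them Fgf4, Fgf8 and the endocrine factors Fgf15, Fgf21 and Fgf23, had 0 to 16 counts over all 4 libraries together. Of 10 co-receptors, decoy receptors and carriers, 7 were tested and none was called, with a list median of 0.059. Fgfrl1, a receptor without a kinase domain, stood at 18.2 and 16.5 CPM in the Pgr gecKO libraries, against 18.4 and 14.96 CPM in the wild-type libraries. Nrp1, a co-receptor of several growth factors, stood at 72.8 and 34.0 CPM in Pgr gecKO and 72.3 and 73.3 CPM in wild type, so Pgr gecKO replicate 2 alone was low. The adhesion protein gene Flrt3, which binds FGF receptors, had a log2 fold change of −0.55 that became 0.0092 without wild-type replicate 1. The endocrine co-receptor genes Kl and Klb were scarce, with 8 counts in all for Kl and between 0.317 and 0.606 CPM per library for Klb.

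The list of progesterone, hedgehog and HAND2 axis genes showed no call among 15 tested. Hand2 stood at 119.0 and 71.9 CPM in the Pgr gecKO libraries, against 118.8 and 95.9 CPM in the wild-type libraries. The groups overlapped, and its log2 fold change was −0.17 with an interval of −0.86 to 0.53. Indian hedgehog, Ihh, the epithelial signal of the pathway, stood at 73.0 and 102.9 CPM in Pgr gecKO and 167.8 and 87.1 CPM in wild type, and Nr2f2, the stromal factor that it raises, at 399.3 and 256.4 CPM in Pgr gecKO and 289.1 and 321.5 CPM in wild type. Wild-type replicate 1 had the highest level of Ihh and also of Fgf9. Gli1, a direct hedgehog target, was higher in both Pgr gecKO libraries, at 242.4 and 272.7 CPM, against 193.1 and 230.6 CPM in wild type, with a log2 fold change of 0.28 and an interval of −0.29 to 0.86.

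Wnt4, a ligand raised by progesterone signalling in stroma, was the gene of the axis list with the smallest p. It stood at 4.90 and 2.46 CPM in the Pgr gecKO libraries, against 8.20 and 7.81 CPM in the wild-type libraries, and the groups did not overlap. The log2 fold change of −1.12 (SE 0.43) had an adjusted p of 1 in edgeR and 0.913 in DESeq2. The list median was −0.090. In 1 of the 15 genes (6.67%) both Pgr gecKO libraries were below both wild-type libraries, where 13.1% of all genes tested were. In 1 of the 15 both were above, where 12.2% of all genes tested were.

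Heparan sulphate carriers and enzymes, which present FGFs to their receptors, were all 22 tested, with a median log2 fold change of 0.020 and no call. In 2 of the 22 (9.09%) both Pgr gecKO libraries were below both wild-type libraries, where 13.1% of all genes tested were. The largest members were the proteoglycan genes Hspg2, at 461.4 and 344.5 CPM in the Pgr gecKO libraries and 446.7 and 296.0 CPM in the wild-type libraries, and Sdc4, at 168.0 and 156.5 CPM in Pgr gecKO and 207.3 and 192.1 CPM in wild type. Hs3st1, which adds the 3-O-sulphate of heparan sulphate, stood at 18.5 and 14.5 CPM in the Pgr gecKO libraries, against 28.4 and 28.7 CPM in the wild-type libraries. Both Pgr gecKO values were lower and the wild-type replicates close, with a log2 fold change of −0.79 and a standard error of 0.25, but the adjusted p was 1 in edgeR and 0.727 in DESeq2. Hs6st2, a 6-O-sulphotransferase gene, had a log2 fold change of −1.07 that became −0.023 without wild-type replicate 1.

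The adaptors and kinases of the relay differed little. All 20 were tested, none was called, and their log2 fold changes ran from −0.27 to 0.24 with a median of 0.0019. Grb2, the adaptor that recruits SOS to FRS2, stood at 115.4 and 117.0 CPM in the Pgr gecKO libraries, against 113.6 and 117.5 CPM in the wild-type libraries. Mapk3, which encodes ERK1, stood at 208.2 and 142.7 CPM in Pgr gecKO and 163.6 and 168.7 CPM in wild type. Pik3ca and Cbl, for a lipid kinase and for the ubiquitin ligase that removes active receptors, had log2 fold changes of −0.27 and −0.22 with intervals that included 0.

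Among 17 tested feedback inhibitors and ETV targets, genes that report FGF and other MAP kinase signals, none was called either. The list median was −0.23, and 14 of the 17 log2 fold changes were below 0, where 48.9% of all genes tested were. In 6 of the 17 (35.3%) both Pgr gecKO libraries were below both wild-type libraries, where 13.1% of all genes tested were, and in 0 of 17 both were above, where 12.2% were. The 6 were the transcription factor genes Etv4 and Etv5, the ERK phosphatase gene Dusp6, and the inhibitor genes Spry4, Spred1 and Spred2. Of these, Etv5, Dusp6, Spred1 and Spred2 were named after their values were seen.

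Etv4 stood at 1.18 and 0.784 CPM in the Pgr gecKO libraries, against 2.53 and 1.82 CPM in the wild-type libraries. Its log2 fold change was −1.14 with an interval of −2.35 to 0.061. Etv5 stood at 43.3 and 23.2 CPM in the Pgr gecKO libraries, against 62.6 and 45.9 CPM in the wild-type libraries, with a log2 fold change of −0.70 and an interval of −1.51 to 0.10. Pgr gecKO replicate 2 was the low library for both, and for Etv5 the value was −0.32 without it.

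Dusp6 stood at 36.6 and 31.3 CPM in the Pgr gecKO libraries, against 48.2 and 43.9 CPM in the wild-type libraries, with a log2 fold change of −0.44 and an interval of −0.95 to 0.073. Spry4 stood at 8.19 and 6.56 CPM in Pgr gecKO and 20.8 and 8.21 CPM in wild type. Only wild-type replicate 1 stood clear of the rest, and the log2 fold change of −0.97 became −0.14 without it. Spred1 and Spred2 had log2 fold changes of −0.15 and −0.27. Dusp4, also named after its values were seen, spread most, at 2.33 and 31.5 CPM in the Pgr gecKO libraries, against 11.2 and 5.84 CPM in the wild-type libraries. The 2 members with the highest TPM, Myc and Ccnd1, had log2 fold changes of −0.19 and −0.049 with overlapping groups.

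**Figure D5:**
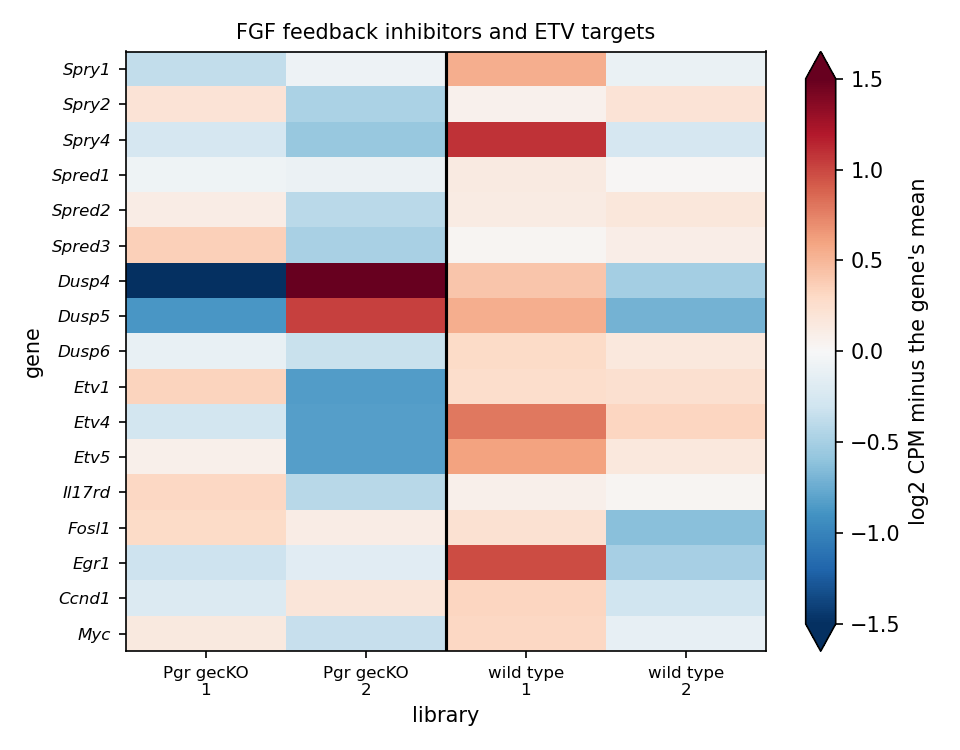
Log2 CPM of the 17 tested feedback inhibitors and ETV targets minus each gene's mean over the 4 libraries, with Pgr gecKO left of wild type. Red is above and blue below the mean, and values past 1.5 share the end colours. Etv4 and Dusp6 are below their means in both Pgr gecKO libraries, and Spry4 and Egr1 are highest in wild-type replicate 1.

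The summed level of 24 proliferation genes was 654.0 and 557.2 CPM in the Pgr gecKO libraries, against 1205 and 894.6 CPM in the wild-type libraries, and 21 of the 24 were lower in both Pgr gecKO libraries, as were 13.1% of all genes tested. None of the 24 was called in edgeR, DESeq2 or limma-voom. Top2a, the topoisomerase of dividing cells, stood at 87.1 and 70.8 CPM in Pgr gecKO and 175.0 and 137.0 CPM in wild type, and Rrm2, which makes nucleotides for replication, at 13.8 and 9.20 CPM in Pgr gecKO and 29.2 and 20.5 CPM in wild type. The most abundant members by TPM were Pcna and Mcm7, with log2 fold changes of −0.81 and −0.28. The proliferation list was already known to be lower in these libraries and lends no separate weight to the FGF values. Whether the 2 lists are linked was not tested.

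The genes whose pattern over the 4 libraries was most like that of Fgf9, by the Euclidean distance of centred log2 CPM among 17268 genes of at least 1 CPM, were Xlr4b, 8030451A03Rik and Tyro3, at distances of 0.180, 0.254 and 0.317. Fgf9 itself spanned 2.49 log2 units over the 4 libraries. Tyro3, a receptor tyrosine kinase gene of another family, stood at 9.34 and 11.7 CPM in the Pgr gecKO libraries, against 38.8 and 17.9 CPM in the wild-type libraries. For Fgfr1, the receptor with the smallest p, the closest were Mrm3, 9530068E07Rik and Slc5a6, at distances of 0.030, 0.044 and 0.050 against a span of 0.84 log2 units. With 4 libraries, such closeness among many genes describes these samples only.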

How the data were processed

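Whole-uterus RNA was measured in 4 samples. Trimmomatic, STAR, featureCounts and the build GRCm39 are named in the submitters' processing notes, and bcl2fastq 2.17 and the NEBNext library kit in the labels' protocols. The sources used here give no other tool versions and no strand or multi-mapping settings.

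The authors deposited raw counts for 57186 genes and TPM for the 19991 genes with a total count of at least 51. In each column the deposited TPM match counts per unit of gene length brought to a common total. From the counts, edgeR 4.0.16 in R 4.3.3 fitted a quasi-likelihood model of genotype alone, after TMM scaling and filterByExpr (minimum count 10), over 20950 genes, with Benjamini-Hochberg adjustment and a threshold of 0.05. CPM use TMM factors. Intervals are 95%, with 2 residual and 4.77 prior degrees of freedom. Depth was 29932153 to 35149834 counts per sample. At that depth 1 count is worth 0.0285 to 0.0356 CPM. The procedure was tested on simulated data. There, changes were placed only in genes above a mean level that Fgf7, Fgf9, Fgf18 and Fgfr4 do not reach. It therefore does not show what could be detected for those genes.

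The members and gene lists were chosen with earlier results of these data known. Named genes are the 10 members, tested FGF family genes, Hand2, Pgr, Ihh and Nr2f2, any called gene, the 2 most abundant and the 2 with the smallest p of each pathway list, and the 3 closest in pattern to 1 ligand and 1 receptor. Kl, Klb, Egr1, Prss29, Adipoq, Fgfr3-ps and single gland and leukocyte markers are named outside that rule, with their values seen. So are overlapping genes and FGF genes under the filter. Other settings tried were DESeq2 1.42.0, limma-voom (limma 3.58.1), factors by RLE or upper quartile, other filters, log2(TPM + 1), a replicate block and leaving out each library. Scaling to marker counts and a crossed block were chosen after seeing the data. Every pair of libraries differed by more than sampling noise (chi-square over its degrees of freedom at least 40.9). Promoters came from RefSeq on GRCm38.p6.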

Additional observations from a re-analysis of the deposited data

How the results depend on the processing

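None of the 10 FGF genes was called under any alternative run, and the pathway lists gave 0 calls in each. Under the 11 alternatives that kept all 4 libraries, 105 of 110 member values kept their sign and stayed uncalled. The exceptions were Fgf7, at 0.015 with limma-voom, 0.0094 with the replicate block, 0.00070 with the crossed replicate block and 0.11 scaled to stromal markers, and Fgfr2, at 0.0046 scaled to stromal markers. The number at an unadjusted p under 0.05, which is 1, was 0 scaled to stromal markers. The cause was not tested.

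The number of all genes called, 1 in edgeR, was 85 with DESeq2, 0 with limma-voom, 54 with no low-count filter, 3 on log2(TPM + 1), 44 scaled to stromal markers, 143 scaled to pan-epithelial markers and 16 to 49 with 1 library left out. The replicate numbers are not stated to pair the samples, and the deviations of replicate 1 correlated at −0.44 between the groups over genes. With the replicate block 32 genes were called, and with the crossed block 37, in both cases 0 of the FGF genes.

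Among other named genes, Grb2 was at −0.0099 with upper-quartile factors, −0.050 on log2(TPM + 1) and −0.011 scaled to pan-epithelial markers, Mapk3 at −0.0052 on log2(TPM + 1), and Pgr at 0.055 and Ccnd1 at 0.11 scaled to stromal markers. With 1 library left out the log2 fold change ran from −1.33 to 1.19 for Fgf1, −0.24 to 0.36 for Fgf2, −0.77 to 0.83 for Fgf7, −0.41 to 0.24 for Fgf10, −0.30 to 0.54 for Fgf18, −0.15 to 0.033 for Fgfr2 and −0.0037 to 0.75 for Fgfr3. It ran from −0.58 to 0.15 for Hand2, −0.098 to 0.069 for Pgr, −0.93 to 0.028 for Ihh, −0.25 to 0.39 for Nr2f2, −0.63 to 0.96 for Fgf20, −1.10 to 0.0025 for Nrp1, −0.084 to 0.23 for Fgfrl1, −1.001 to 0.0092 for Flrt3, −0.15 to 0.46 for Hspg2, −0.22 to 0.33 for Mapk3, −0.0018 to 0.031 for Grb2, −0.45 to 0.058 for Myc, −0.33 to 0.31 for Ccnd1 and −0.51 to 0.0092 for Mcm7.

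With 2 samples per group, the intervals of the 10 genes allow folds from 0.113 to 3.90, so absence of a call does not show equal levels. Fgfr4 and Fgf9 also rest on few counts.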
